A study of Homo sapiens with 15 samples.

Results

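The genes described are 10 whose RNA moved one way in NCI-H295R cells given constitutively active NFATC4 and the other way in NCI-H295R libraries labelled NFATC4-KO: DPP4, FARP1, FRY, GNG11, CCDC103, FAM187A, MFSD4B, MKNK2, MXD4 and TSPYL2. They were chosen by their own fold changes in both comparisons, 10 of 14368 genes tested and of 21493 in the count tables, and all 10 passed the filter on low counts. NCI-H295R is a cell line from a human adrenocortical carcinoma and produces aldosterone, and the study compared the same line with NFATC4 made active and with NFATC4 deleted. RNA was sequenced in 15 libraries of 4 groups. ΔNFATC4 cells (3 libraries) carried a pcDNA3.T7 plasmid coding for NFATC4 without its N-terminal domain, the form that no longer needs calcineurin, and mock cells (4 libraries) carried pcDNA3.T7 alone. RNA of both was taken 3 days after transfection, and the labels give both as wild type at the NFATC4 locus. NFATC4-KO cells (4 libraries, numbered replicates 1, 2, 3 and 5) came from single-cell clones made with Cas9 plasmids and a pair of guide RNAs against NFATC4, and control cells (4 libraries) received empty plasmids in parallel. Which clone gave which library, and whether libraries of a group came from separate cultures, is not given in the sources used here, so the spread given below is that between these libraries.

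NFATC4 is a transcription factor of the NFAT family. Calcium entry activates the phosphatase calcineurin, which removes phosphates from the N-terminal part of NFAT proteins so that they enter the nucleus and bind DNA, often at sites with the core GGAAA. In the adrenal cortex calcium signals follow angiotensin II and potassium, the physiological stimuli of aldosterone synthesis. The 10 genes have no single known function: DPP4, GNG11 and FARP1 act at the cell membrane, FRY and CCDC103 in the cytoskeleton and cilia, MFSD4B is a transporter, and MKNK2, MXD4 and TSPYL2 act in translation and in the nucleus.

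Depth was 18.8 to 28.2 M counts per library. Levels are given as CPM, the counts of a gene per total count of its library, with TMM-scaled library sizes, and fold changes as log2 from 1 edgeR fit of all 15 libraries. NFATC4 RNA stood at 329.7, 359 and 342 CPM in ΔNFATC4 cells, against 91.3, 93.4, 106 and 87.6 CPM in mock cells (plasmid transcripts are counted here too). It stood at 92.7, 85.4, 57.6 and 53.6 CPM in the libraries labelled NFATC4-KO replicates 1, 2, 3 and 5, against 114, 109.9, 44.8 and 54.0 CPM in those labelled control replicates 1 to 4. NFATC4 RNA thus did not bear out the NFATC4-KO label in every library, although RNA can persist where a gene no longer makes protein. The 8 libraries fell into 2 sets by their correlation over all genes tested: set B (control 3 and 4, NFATC4-KO 3 and 5) and set A (control 1 and 2, NFATC4-KO 1 and 2). Libraries correlated at 0.988 to 0.996 within a set and at 0.960 to 0.967 between sets, under either label, and the sets come from the data and not from the labels. All 12 adrenocortical markers were detected in every library, and HSD3B2 and MC2R rose in ΔNFATC4 cells. Of the 4 endothelial markers PECAM1, VWF and CDH5 reached at most 0.202 CPM and KDR 0.689 CPM, and the leukocyte marker PTPRC at most 0.0863 CPM. The 5 fibroblast markers summed to 45.2 to 52.3 CPM in ΔNFATC4 libraries and 20.05 to 25.52 CPM in mock libraries. COL3A1 rose (mean 38.2 CPM in ΔNFATC4 and 12.1 CPM in mock libraries), COL1A1 averaged 9.42 CPM in ΔNFATC4 and 10.1 CPM in mock libraries, and COL1A2, PDGFRB and LUM were at 0 in some libraries. The 4 leukocyte markers summed to 1.30 to 1.74 CPM in ΔNFATC4 libraries and 0.302 to 0.574 CPM in mock libraries, nearly all CD68. The part of these shifts in the 10 genes was not tested, and in bulk RNA fewer cells of a type and less RNA per cell cannot be told apart.

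In ΔNFATC4 cells over mock cells 6 of the 10 genes rose (DPP4, FARP1, FRY, GNG11, CCDC103, FAM187A) and 4 fell (MFSD4B, MKNK2, MXD4, TSPYL2), and each went the other way in the libraries labelled NFATC4-KO over those labelled control. Rose and fell are used of genes at an adjusted p under 0.05, over all genes tested. By that rule 326 genes (2.27%) rose and 204 (1.42%) fell in ΔNFATC4 cells, while 31 (0.216%) rose and 31 (0.216%) fell under the NFATC4-KO label. Opposed in both were 11 genes (0.0766%): the 10 described here and ITGA1, an integrin subunit, at a log2 fold change of 0.30 in ΔNFATC4 and -0.36 under the NFATC4-KO label. Since these values selected the genes, their adjusted p values, 0.00211 to 0.0474 in ΔNFATC4 and 0.0298 to 0.0499 under the NFATC4-KO label, are a description and no test. Just inside the threshold lay FARP1 and FRY, at 0.0499 each in the NFATC4-KO comparison. Just outside it lay CGNL1, at 0.46 and -0.37 with an adjusted p of 0.0537 from edgeR in the NFATC4-KO comparison, and PIM2, at -0.43 and 0.35 with 0.0581.

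**Figure D1:**
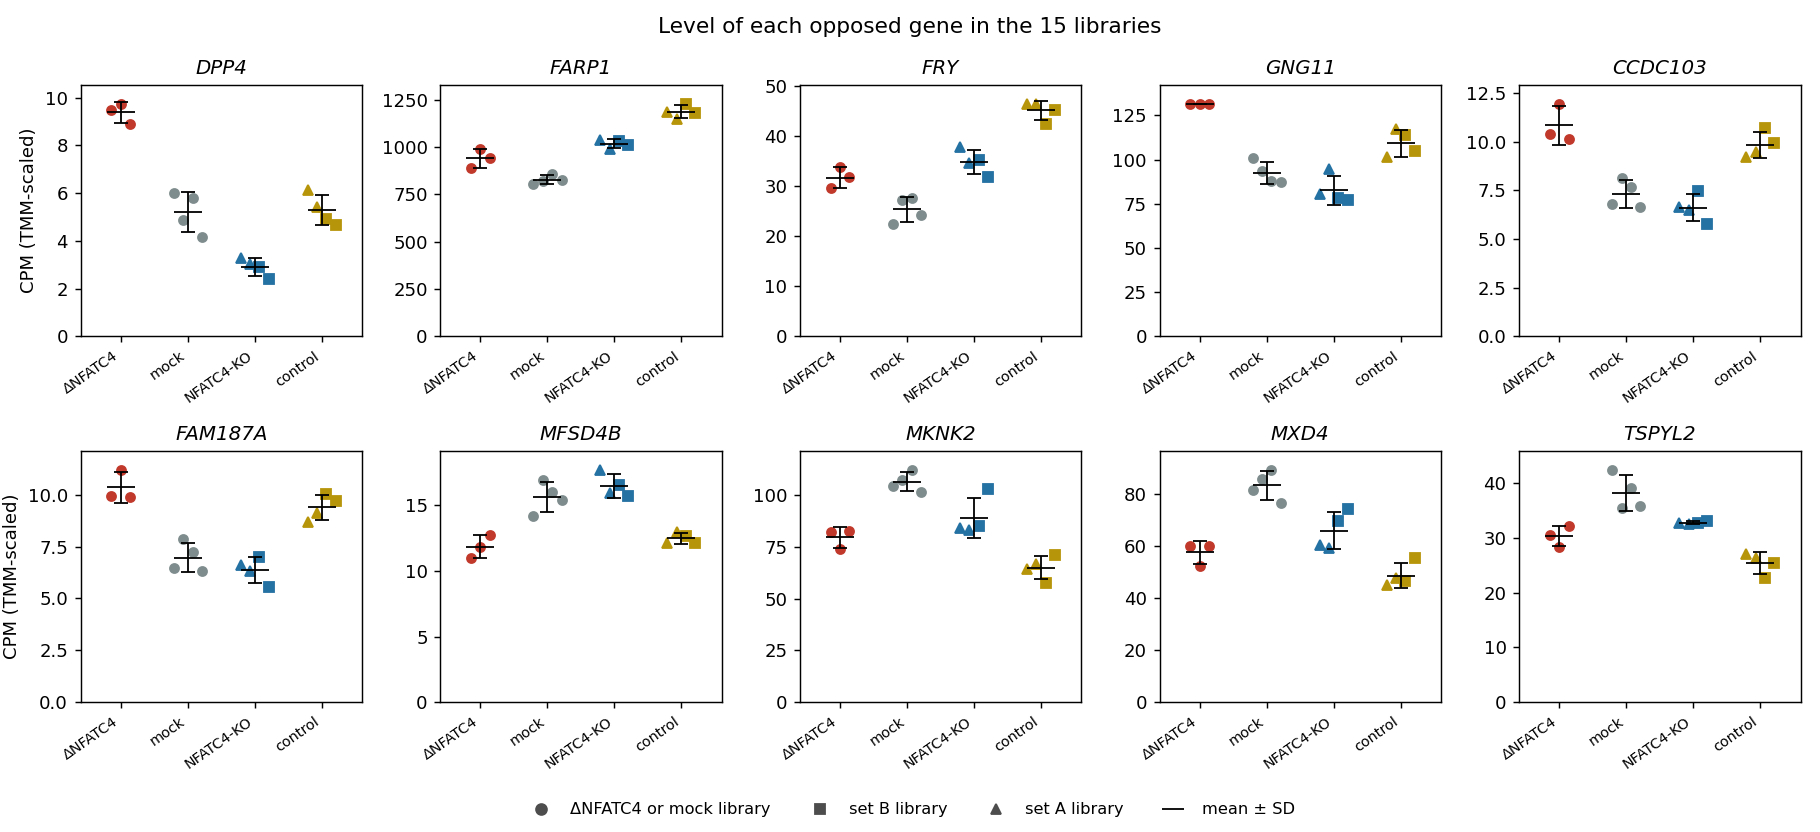
Level of each gene (CPM with TMM-scaled library sizes, axes from 0) in the 15 libraries, with ΔNFATC4 left of mock and NFATC4-KO left of control. Each point is a library, squares are set B and triangles set A, and black marks give the mean ± SD of a group. ΔNFATC4 and mock libraries do not overlap in any of the 10 panels, nor do NFATC4-KO and control libraries. Mock and control libraries overlap for DPP4.

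The promoters were read for the GGAAA core on either strand, in RefSeq windows (GRCh38.p14) from 250 bases before to 50 bases after each annotated start. Windows were found for 8 of the 10 genes, 9 windows in all, and CCDC103 and MFSD4B were not matched. GGAAA occurred in 4 of the 9 windows (44.4%), those of DPP4, GNG11, FAM187A and TSPYL2, against 61.2% of all 35116 windows of the same length and 58.6% of the 16411 windows of genes tested. FARP1, FRY, MKNK2 and MXD4 had none in these windows. The FAM187A window lies wholly in the last exon of CCDC103, so its matches are also exon bases of CCDC103. The only FRY window, chr13:32031524-32031823, lies inside the gene, and the stretch around the gene's start at 31846713 was not read. The DPP4 match lies before the RefSeq start of its window. By the gene positions given below, which start DPP4 at 162074394 on the minus strand, that match lies inside the gene. The sequences below show 250 bases before the start for GNG11 and TSPYL2, which had the most matches among the printed genes of each direction, and for MXD4 and MKNK2, which had none, with 25 bases around the single match of DPP4. They are given 5′ to 3′ on the strand of the gene, with GGAAA and its reverse complement TTTCC in capitals. GGAAA contains GGAA, the core that ETS factors bind, so a match names no factor.
GNG11, which rose in ΔNFATC4, 5 matches, chr7:93921485-93921734, plus strand: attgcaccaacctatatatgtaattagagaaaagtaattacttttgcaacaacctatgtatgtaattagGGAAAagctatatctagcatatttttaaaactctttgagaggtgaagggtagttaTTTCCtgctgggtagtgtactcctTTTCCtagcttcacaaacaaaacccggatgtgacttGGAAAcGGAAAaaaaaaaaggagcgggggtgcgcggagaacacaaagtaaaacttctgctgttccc
DPP4, which rose in ΔNFATC4, 1 match, chr2:162074312-162074336, minus strand: ccgcgcgcccTTTCCcctcccccac
TSPYL2, which fell in ΔNFATC4, 2 matches, chrX:53082117-53082366, plus strand: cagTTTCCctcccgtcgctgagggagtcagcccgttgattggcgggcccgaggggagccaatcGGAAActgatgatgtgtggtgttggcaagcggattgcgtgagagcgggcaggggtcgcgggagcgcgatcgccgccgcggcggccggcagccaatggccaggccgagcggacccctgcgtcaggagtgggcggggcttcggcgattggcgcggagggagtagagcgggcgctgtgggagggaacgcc
MXD4, which fell in ΔNFATC4, 0 matches, chr4:2262110-2262359, minus strand: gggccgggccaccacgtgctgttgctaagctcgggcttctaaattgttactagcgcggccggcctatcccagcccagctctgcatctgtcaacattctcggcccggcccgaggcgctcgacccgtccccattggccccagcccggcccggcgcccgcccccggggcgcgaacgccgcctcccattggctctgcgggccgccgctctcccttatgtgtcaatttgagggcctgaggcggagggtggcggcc
MKNK2, which fell in ΔNFATC4, 0 matches, chr19:2051245-2051494, minus strand: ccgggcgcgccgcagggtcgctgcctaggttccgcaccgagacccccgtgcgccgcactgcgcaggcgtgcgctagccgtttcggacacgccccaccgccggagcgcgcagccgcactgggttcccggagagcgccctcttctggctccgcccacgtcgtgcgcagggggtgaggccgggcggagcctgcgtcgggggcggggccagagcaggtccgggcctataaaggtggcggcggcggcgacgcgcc
The capitals show that matches occurred in genes of both directions, up to 5 in GNG11, and were missing from the windows of 2 genes that rose (FARP1, FRY) and 2 that fell (MKNK2, MXD4). A match is a description of these letters and not of binding.

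DPP4 (ENSG00000197635, chromosome 2, 161992245 to 162074394, minus strand, 26 exons in its canonical transcript) encodes a membrane-bound serine peptidase that trims incretins and other peptides and is known on T cells as CD26. It showed the widest swing of the 10. ΔNFATC4 libraries held 9.47, 9.75 and 8.91 CPM, against 5.99, 4.87, 5.79 and 4.16 CPM in mock libraries. Libraries labelled NFATC4-KO held 3.30, 3.02, 2.90 and 2.40 CPM, against 6.12, 5.43, 4.91 and 4.68 CPM in those labelled control. All ΔNFATC4 libraries lay above the mock range and all NFATC4-KO libraries below the control range, and mock and control libraries overlapped. The log2 fold change was 0.85 (standard error 0.15) over mock and -0.86 (standard error 0.14) under the NFATC4-KO label, 1.80 times mock and 0.549 times control. Per length DPP4 was the lowest of the 10, at a mean of 0.377 RPKM (CPM per kilobase of exon) over the 15 libraries.

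GNG11 (ENSG00000127920, chromosome 7, 93921735 to 93928610, plus strand, 2 exons) encodes a gamma subunit of heterotrimeric G proteins, which relay signals from hormone receptors. It stood at 131, 132 and 131 CPM in the ΔNFATC4 libraries, a very narrow range, against 101, 93.5, 88.1 and 87.0 CPM in mock libraries. The libraries labelled NFATC4-KO held 80.4, 94.9, 78.5 and 76.9 CPM, against 101, 118, 114 and 105 CPM in control libraries. The groups did not overlap, with NFATC4-KO replicate 2 the nearest to control. On the log2 scale the change was 0.51 (standard error 0.08) in ΔNFATC4 and -0.40 (standard error 0.07) under the NFATC4-KO label. Per length GNG11 was the highest of the 10, at 33.8 RPKM. This is the gene with 5 GGAAA matches in its promoter window.

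FARP1 (ENSG00000152767, chromosome 13, 98142562 to 98455176, plus strand), which encodes a membrane-associated protein with a FERM domain, was the gene with the most reads and the smallest change. It stood at 890.0, 991 and 940.3 CPM in ΔNFATC4 libraries, against 802, 821, 856 and 827 CPM in mock libraries. It stood at 1037, 989, 1032 and 1012 CPM in libraries labelled NFATC4-KO, against 1187, 1148, 1229 and 1179.8 CPM in those labelled control. Both pairs of groups stood apart, by small margins relative to the level. FARP1 changed by 0.19 (log2, standard error 0.05) in ΔNFATC4 and -0.22 (standard error 0.05) under the NFATC4-KO label. Of its exon bases 21.1% lie opposite exons of STK24, on the other strand, and the strand setting of the counting is not given in the sources used here.

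FRY (ENSG00000073910, chromosome 13, 31846713 to 32299125, plus strand) encodes a very large microtubule-associated scaffold, whose Drosophila counterpart furry acts with NDR kinases. Its levels were 29.7, 33.8 and 31.8 CPM in ΔNFATC4 libraries, against 22.4, 27.2, 27.6 and 24.3 CPM in mock libraries. Under the NFATC4-KO label they were 37.8, 34.7, 35.3 and 31.9 CPM, against 46.5, 46.4, 42.5 and 45.3 CPM under the control label. Groups did not overlap within either comparison, yet every library labelled NFATC4-KO, the lowered group, stood above every mock library. Its log2 fold change was 0.32 (standard error 0.08) in ΔNFATC4 and -0.37 (standard error 0.08) under the NFATC4-KO label. The pseudogene EEF1DP3 shares 4.15% of FRY's exon bases on the same strand.

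CCDC103 and FAM187A, both on the plus strand of chromosome 17, cannot be counted as separate genes in these data. CCDC103 (ENSG00000167131, 44899142 to 44905390) encodes a factor needed for attaching dynein arms in motile cilia, and FAM187A (ENSG00000214447, 44903433 to 44905390) is annotated as a single exon. All 1958 exon bases of FAM187A lie in the last exon of CCDC103 and make up 50.3% of its 3895 exon bases. FAM187A held 0.937 to 0.993 counts per CCDC103 count in the 15 libraries, and their log2 CPM correlated at 0.997. All of FAM187A's exon bases and 57.3% of those of CCDC103 also lie opposite exons of GFAP, on the other strand. They are described as 1 measurement from the shared exon, and the 10 listed genes then stand for 9.

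**Figure D2:**
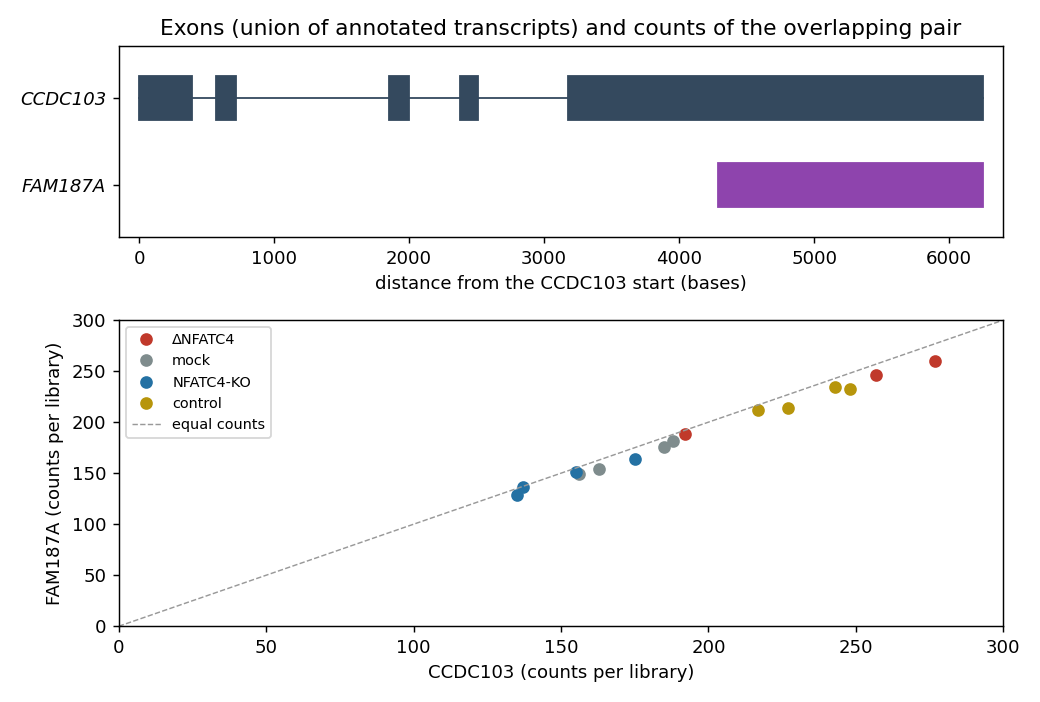
Top, exons of CCDC103 and FAM187A (union of annotated transcripts) by distance in bases from the CCDC103 start. Bottom, counts of both genes in each library, where a point is 1 library and the dashed line marks equal counts. The FAM187A exon lies wholly in the last CCDC103 exon, and all 15 libraries sit just under the line.

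CCDC103 held 10.4, 12.0 and 10.1 CPM in ΔNFATC4 libraries, against 6.77, 8.10, 7.67 and 6.64 CPM in mock libraries. Under the NFATC4-KO label it held 6.64, 6.50, 7.47 and 5.79 CPM, against 9.20, 9.49, 10.7 and 9.95 CPM under the control label. The groups did not overlap in either comparison, while ΔNFATC4 overlapped control and NFATC4-KO overlapped mock. Its log2 fold change was 0.57 (standard error 0.11) in ΔNFATC4 and -0.57 (standard error 0.10) under the NFATC4-KO label. FAM187A, from the same reads, had 0.57 and -0.56.

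MFSD4B (ENSG00000173214, chromosome 6, 111259327 to 111445354, plus strand) belongs to the major facilitator transporters, and its rat counterpart carries glucose with sodium. It held 11.01, 11.8 and 12.8 CPM in ΔNFATC4 libraries, against 14.2, 16.9, 16.1 and 15.4 CPM in mock libraries. Libraries labelled NFATC4-KO held 17.7, 15.97, 16.5 and 15.7 CPM, against 12.2, 13.001, 12.7 and 12.1 CPM in those labelled control. Libraries split into a low pair of groups, ΔNFATC4 and control, and a high pair, NFATC4-KO and mock, with overlap within each pair. The log2 fold change was -0.40 (standard error 0.08) in ΔNFATC4 and 0.40 (standard error 0.08) under the NFATC4-KO label.

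MKNK2 (ENSG00000099875, chromosome 19, 2037465 to 2051244, minus strand) encodes a MAP kinase-activated kinase that phosphorylates the cap-binding protein eIF4E. It stood at 82.2, 73.7 and 82.7 CPM in ΔNFATC4 libraries, against 104, 107, 112 and 101 CPM in mock libraries. It stood at 83.8, 83.0, 85.0 and 102.9 CPM in libraries labelled NFATC4-KO, against 64.4, 66.5, 57.6 and 70.9 CPM in those labelled control. NFATC4-KO replicate 5 stood above the other libraries of its label and inside the range of mock. The log2 fold change was -0.42 (standard error 0.09) in ΔNFATC4 and 0.45 (standard error 0.08) under the NFATC4-KO label, and 0.37 (adjusted p = 0.100 from edgeR) without replicate 5.

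MXD4 (ENSG00000123933, chromosome 4, 2247432 to 2262109, minus strand) encodes a partner of MAX that represses targets of MYC. It stood at 60.2, 52.5 and 60.3 CPM in ΔNFATC4 libraries, against 81.8, 85.8, 89.6 and 76.8 CPM in mock libraries. It stood at 60.7, 59.4, 69.8 and 74.5 CPM in libraries labelled NFATC4-KO, against 45.0, 47.7, 46.7 and 55.7 CPM in those labelled control. The groups did not overlap, and the libraries labelled NFATC4-KO lay higher in set B (replicates 3 and 5) than in set A (replicates 1 and 2). For MXD4 the log2 fold change was -0.53 (standard error 0.10) in ΔNFATC4, the deepest fall of the 4, and 0.44 (standard error 0.09) under the NFATC4-KO label.

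TSPYL2 (ENSG00000184205, X chromosome, 53082367 to 53088540, plus strand) encodes a nuclear protein of the TSPY-like and nucleosome assembly family. It held 30.6, 28.4 and 32.2 CPM in ΔNFATC4 libraries, against 42.5, 35.5, 39.2 and 35.9 CPM in mock libraries. The libraries labelled NFATC4-KO held 32.7, 32.6, 32.7 and 33.2 CPM, the tightest group of this gene, against 27.1, 26.4, 22.7 and 25.5 CPM in those labelled control. Neither comparison had overlapping groups. The log2 fold change was -0.33 (standard error 0.08) in ΔNFATC4 and 0.37 (standard error 0.07) under the NFATC4-KO label.

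All 10 genes had groups without overlap in ΔNFATC4 against mock, as did 24.2% of the genes tested, and in NFATC4-KO against control, as did 6.74%. Nothing is read from these counts, since the fold changes of the same libraries chose the genes. The NFATC4-KO comparison was then set out within each library set, with 2 libraries against 2. Since the 8 libraries did not overlap by label in any of the 10 genes, the direction and the lack of overlap within each set are fixed by that and are no further result (53.0% of the genes tested had no overlap in set B and 58.0% in set A, in either direction). Log2 fold changes of the 6 lowered genes ran from -0.85 for DPP4 to -0.24 for FARP1 in set B and from -0.87 to -0.21 for the same genes in set A. Those of the 4 raised genes ran from 0.38 for MFSD4B to 0.55 for MKNK2 in set B and from 0.29 for TSPYL2 to 0.42 for MFSD4B in set A. NFATC4 itself had 0.17 in set B and -0.33 in set A.

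The difference between the sets in the NFATC4-KO effect is a description too, because it is part of the spread within groups in the fit that chose the genes, so that genes with a large one were less able to pass. Set B minus set A, it ran from -0.19 for FAM187A (standard error 0.20) to 0.20 for MKNK2 (standard error 0.13), and that of DPP4 was 0.02 (standard error 0.27). By edgeR 6 genes of 14368 (0.0418%) differed between the sets at an adjusted p under 0.05 and 2188 at an unadjusted p under 0.05. The 10 genes were in neither count, from which nothing is read, and the standard errors reached 0.27. Shifts in level between the sets enter that spread in the same way. The set B over set A log2 fold change ran from -0.26 for DPP4 to 0.20 for MXD4, with a median size of 0.08 over the 10 genes and 0.20 over all genes tested.

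**Figure D3:**
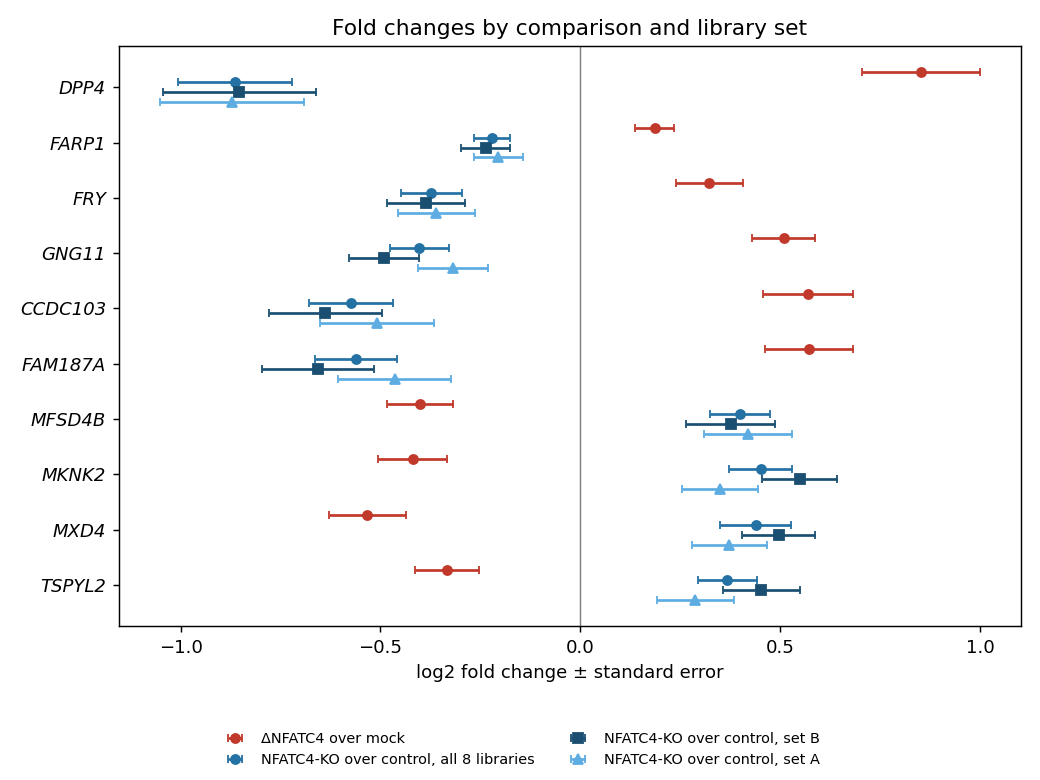
Log2 fold change ± standard error (x axis) of each gene in ΔNFATC4 over mock (red), NFATC4-KO over control in all 8 libraries (blue circles), in set B (dark squares) and in set A (light triangles). The red points lie opposite the blue ones across 0 for all 10 genes, and the set B and set A points lie on the same side, at -0.85 and -0.87 for DPP4.

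With the library set as a term in the fit, the genes opposed in both comparisons numbered 244 (1.70% of those tested), the 10 listed among them. The spread between sets no longer enters the error there, and 1737 genes in place of 62 were called under the NFATC4-KO label. A further fit held only the 2 groups compared and their replicates 1, 2 and 3. It had a block for the replicate number and no separate set term. In control and NFATC4-KO libraries the block also takes up the set, since replicates 1 and 2 are set A and replicate 3 is set B. With the block 4 of the 10 genes kept their NFATC4-KO call (DPP4, GNG11, MKNK2, MXD4). The part of the block and that of the libraries left out cannot be told apart. Adjusted p from edgeR with the block was 0.0722 for FARP1, 0.0864 for FRY, 0.0600 for CCDC103, 0.0777 for FAM187A, 0.0856 for MFSD4B and 0.0838 for TSPYL2. Leaving out ΔNFATC4 replicate 1, control replicate 1, 2 or 3, or NFATC4-KO replicate 1 or 5 left 0 of the 10 genes past the threshold in both comparisons, with every direction as before.

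Mock and control cells are both references, and the 10 genes differed in how far these stood from each other. Mock and control libraries overlapped for DPP4 and not for the others. For GNG11 they nearly met, at 101.06 CPM in mock replicate 1 and 101.16 CPM in control replicate 1. How often they stood apart over all genes tested was not counted, and nothing is read from it. The median size of the mock over control log2 fold change was 0.48 over the 10 genes and 0.23 over all genes tested. Mock and control are the references of the comparisons that chose the genes, so these sizes are a description and no test. The change was negative for the 6 genes that rose in ΔNFATC4, at -0.02 for DPP4 (standard error 0.14), and positive for the 4 that fell. It was -0.83 for FRY (standard error 0.08), -0.52 for FARP1 (standard error 0.05), 0.78 for MXD4 (standard error 0.09), 0.71 for MKNK2 (standard error 0.08) and 0.59 for TSPYL2 (standard error 0.07). The plasmids of mock and control cells differ, and what else differs between these experiments cannot be told apart from them.

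Set against the other reference, the genes fell into 5 that kept their directions and 5 that turned in both comparisons. DPP4, GNG11, CCDC103, FAM187A and MFSD4B kept them: ΔNFATC4 and NFATC4-KO were their outermost group means, with mock and control between. DPP4 hardly moved, at 0.83 (standard error 0.15) for ΔNFATC4 over control and -0.84 (standard error 0.14) for NFATC4-KO over mock. GNG11 had 0.27 and -0.16, CCDC103 0.14 and -0.14, FAM187A 0.14 and -0.13, and MFSD4B -0.08 and 0.07, all with standard errors of 0.07 to 0.11. Of these 5 only DPP4 kept its libraries apart against both references, and GNG11 did so for ΔNFATC4. How often libraries stood apart against the other reference over all genes tested was not counted, so nothing is read from this.

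FARP1, FRY, MKNK2, MXD4 and TSPYL2 turned. Both ΔNFATC4 and NFATC4-KO means lay between mock and control, as they did for 28.5% of the genes tested. FARP1 and FRY were highest in control, next NFATC4-KO, then ΔNFATC4, and lowest in mock. MKNK2, MXD4 and TSPYL2 ran in the reverse order. ΔNFATC4 over control was -0.33 for FARP1 and -0.51 for FRY, with 0.29 for MKNK2, 0.24 for MXD4 and 0.26 for TSPYL2. NFATC4-KO over mock was 0.30 for FARP1 and 0.46 for FRY, with -0.26 for MKNK2, -0.34 for MXD4 and -0.22 for TSPYL2. It follows from that order, and is no further result, that the ΔNFATC4 and NFATC4-KO means of these 5 genes stood nearer to each other than those of mock and control. Of the 244 genes opposed with the library set as a term, 159 (65.2%) had both means between mock and control, and 67 had them outermost. These contrasts share libraries with those that chose the genes and are given without a test.

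**Figure D4:**
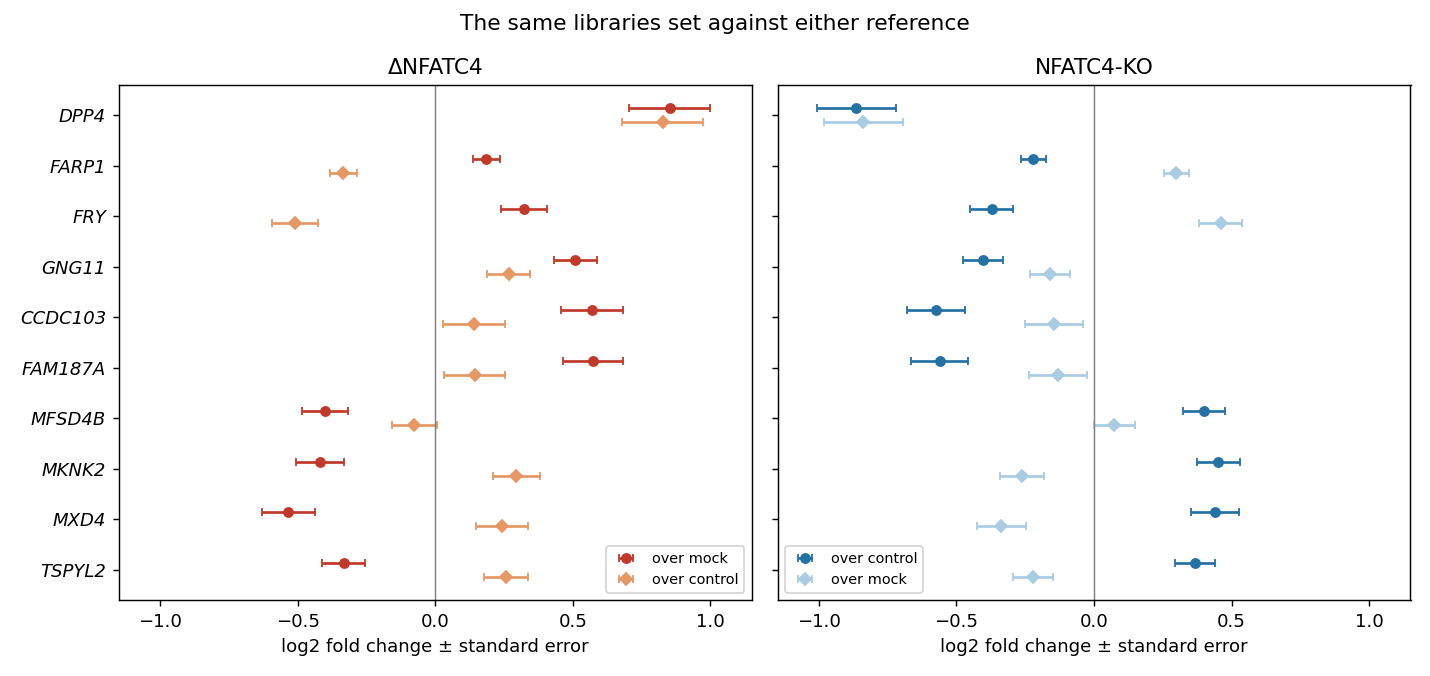
Log2 fold change ± standard error of each gene for ΔNFATC4 (left panel) and NFATC4-KO (right panel), over the reference of its own experiment (circles) and over that of the other (diamonds). Circle and diamond lie on the same side of 0 for DPP4, GNG11, CCDC103, FAM187A and MFSD4B, and on opposite sides for FARP1, FRY, MKNK2, MXD4 and TSPYL2.

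Correlations of log2 CPM over the 15 libraries are a description, since the libraries share the 4 group means. FARP1 and FRY correlated at 0.97, MKNK2 and MXD4 at 0.97, MKNK2 and TSPYL2 at 0.93, and FARP1 and TSPYL2 at -0.89. DPP4 correlated with GNG11 at 0.87 and with MFSD4B at -0.74, but at -0.17 with FARP1 and -0.13 with TSPYL2. The other genes that kept their directions also correlated with those that turned: CCDC103 with MKNK2 and with TSPYL2 at -0.67, MFSD4B with MXD4 at 0.65 and GNG11 with MXD4 at -0.54. The correlations thus did not divide the 10 genes cleanly. Outside the list the gene nearest to each by Pearson's r was CKLF for DPP4 (0.912), CACNA1C for FARP1 (0.973), an unnamed gene, ENSG00000285932, for FRY (0.974), SNTB1 for GNG11 (0.926), YIPF7 for MFSD4B (0.891), TMEM185A for MKNK2 (0.949), TBC1D20 for MXD4 (0.943) and DCXR for TSPYL2 (0.943). C1RL was nearest to both CCDC103 (0.923) and FAM187A (0.906).

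The families and partners of the 10 genes were read from 9 lists of 108 genes, of which 93 were tested. By edgeR 0 of the 93 rose and 5 fell in ΔNFATC4 cells, beside 2.27% and 1.42% of all genes tested, and 0 were called under the NFATC4-KO label, beside 0.216% each way. The median log2 fold change was -0.04 in ΔNFATC4 and 0.01 under the NFATC4-KO label, beside medians of 0.00 in both over all genes tested. MYC, the factor that MXD4 opposes, fell by 0.58 (standard error 0.11) in ΔNFATC4 cells, in the same direction as MXD4. MAPK14, the p38 kinase that can activate MNK kinases, fell by 0.25 (standard error 0.06), and GNB5, a G protein beta subunit, fell by 0.43 (standard error 0.08). DPP10, a relative of DPP4 without peptidase activity, fell by 0.32 (standard error 0.08) and TSPYL1, a relative of TSPYL2, by 0.23 (standard error 0.05). Under the NFATC4-KO label these 5 had log2 fold changes of -0.14 for MYC, -0.04 for MAPK14, -0.01 for GNB5, -0.19 for DPP10 and 0.16 for TSPYL1, none past the threshold.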

How the data were processed

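RNA of 15 libraries was analysed. Per the study's methods and notes, mRNA was made into stranded libraries, adaptors were trimmed by fastp, STAR aligned the reads to GRCh38.p13, and featureCounts gave a value per gene. What the authors deposited is a raw count for each of 21493 genes in every library, of which 21400 have a matched symbol. Tool versions and the strand and multi-mapping settings are not given in the sources used here. The authors tested genes with DESeq2 and called those with a fold change above 2 and a false discovery rate under 0.05. No cutoff on the fold change was used here. Here the counts were tested with edgeR 4.0.16 in R 4.3.3 (filterByExpr, TMM, robust quasi-likelihood fit with 4 group means, Benjamini-Hochberg over 14368 genes, threshold 0.05), and by a fit of 6 means that splits NFATC4-KO and control by library set. A standard error is the size of a log2 fold change over the square root of its F statistic. The fit was tested on simulated data. These held no shift in level common to a library set and none between mock and control, so that test does not cover such shifts. RPKM used the union of exons of the GENCODE annotation of GRCh38, which gave all positions. Correlations used log2 CPM with a prior count of 2. Depth, 18.8 to 28.2 M counts, limits DPP4 most, at 2.40 to 9.75 CPM.

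The 10 genes, the gene lists and the tests were chosen with earlier results of these data known. Named are the 10 genes, NFATC4, other opposed genes, the pair nearest the threshold on each side, the gene of highest r to each member, and up to 4 called genes of a list. Control and NFATC4-KO libraries with numbers 1, 2 and 3 deviated together from their group means (r = 0.810, 0.788 and 0.710) and were taken as pairs for the block, although the numbers also follow the sets. ΔNFATC4 and mock libraries sharing a number did not (0.10, -0.09 and 0.04). The block was fitted to the libraries numbered 1, 2 and 3 of the 2 groups compared, without the others. No 2 libraries agreed within sampling noise. Alternatives were DESeq2's size factors, no filter, a filter of 50 counts in 3 libraries, DESeq2 1.42.0, limma 3.58.1 voom with quality weights, fits without the other groups, a fit that was not robust, the block, the set term, and each library left out.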

Additional observations from a re-analysis of the deposited data

Results flagged for a closer look

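MKNK2 in NFATC4-KO replicate 5, at 102.9 CPM, lay far from the other 3 libraries of its label. Its gap to the nearest of them was 0.897 of the whole range of the group. It was 1 of 30 groups of 4 libraries read in this way, and chance would mark about 1 in 20. Without that library the MKNK2 log2 fold change under the NFATC4-KO label was 0.37 in place of 0.45.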

How the results depend on the processing

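No log2 fold change of the 10 genes changed direction under any alternative. Counts of calls moved more. In ΔNFATC4 over mock, 530 genes were called, 2247 with limma-voom, 1944 with only the 2 groups compared, 1980 with the replicate block and 2355 with the set term, and 200 to 633 with a library left out. Under the NFATC4-KO label, 62 genes were called, 357 with DESeq2, 3.0e+02 with limma-voom (161 rose and 134 fell), 0 with only the 2 groups compared, 139 with the replicate block and 1737 with the set term, and 0 to 64 with a library left out. With only the 2 groups compared by edgeR, adjusted p of the 10 genes was 0.244 to 0.270. Opposed genes numbered 11, then 36, 38, 0, 32 and 244 in the same order of settings, and 0 to 7 with a library left out. Of the 10 listed genes, 0 were opposed with only the 2 groups compared and 4 with the replicate block, which used part of their libraries. The alternatives fitted to all 15 libraries had 7 to 10, and the fits with a library left out had 0 to 6. Genes whose NFATC4-KO effect differed between sets numbered 6, with 178 without a filter, 41 with limma-voom and 43 from the 8 libraries alone, and 1 to 625 with a library left out (625 without control replicate 4). The cause of these shifts was not tested. DPP4 and GNG11 kept the ΔNFATC4 call in all 15 fits with a library left out. The block changed no ΔNFATC4 call of the 10 genes.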
